A study of Mus musculus with 11 samples.

Results

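The p53 and GADD45 growth arrest genes are 10 genes, *Trp53*, *Mdm2*, *Cdkn1a*, *Ccng1*, *Phlda3*, *Btg1*, *Btg2*, *Gadd45a*, *Gadd45b* and *Gadd45g*, chosen by name out of 54232 gene identifiers counted. All 10 were among the 13303 genes that passed the filter on low counts and were tested. Hepatocyte RNA was sequenced to ask how loss of *Xbp1*, a transcription factor of the unfolded protein response, changes the cells on either of 2 diets. Adult male C57BL/6 mice carried floxed *Xbp1* alleles without deletion (*Xbp1* fl/fl, called controls here) or a liver-specific *Xbp1* knockout made with Cre under the albumin promoter (*Xbp1* LKO, called knockouts), and ate either chow or the high fat sugar diet (HFS), a Western diet given with fructose and glucose in the drinking water, for up to 6 weeks. There were 3 control and 2 knockout libraries on chow, each from 1 mouse, and 3 control and 3 knockout libraries on HFS, each a pool of 2 mice, so that HFS libraries average over animals. The chow-fed knockouts have a library fewer than the paper describes for the chow-fed groups, for a reason not given in the sources used here. The file of chow-fed knockout replicate 2 carries the number 3, so a mouse may have been left out. Libraries held 19191032 to 23888401 counts, and levels are given as CPM, the counts of a gene scaled to a common library size after TMM normalization.

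The p53 protein is a transcription factor that is kept scarce by the ubiquitin ligase MDM2, itself a p53 target, and that accumulates after DNA damage and other stress. Its targets include inhibitors of the cell cycle such as p21, the product of *Cdkn1a*, while BTG and GADD45 proteins slow growth through mRNA decay, cell cycle kinases and stress kinases. In liver these genes are known to respond to injury, regeneration and feeding, and several of them are also induced by stress transcription factors other than p53.

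*Xbp1*, the deleted gene, stood at 95.7 to 135 CPM in the 5 knockout libraries and at 194 to 301 CPM in the 6 control libraries, without overlap. A count over the whole gene includes the exons outside the deletion. As a check of the cell type, *Alb*, the most abundant of 12 hepatocyte markers, was at 14021 to 119367 CPM.

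A single library stood apart for several of these genes, and for each member the genotype effect on chow is also given without it. Replicate 2 of the chow-fed knockouts held *Cdkn1a* at 30.2 CPM where replicate 1 had 4.22 CPM, *Ddit3*, which encodes the stress factor CHOP, at 133 CPM where replicate 1 had 23.6 CPM, and *Alb* at 14021 CPM where replicate 1 had 34259 CPM. Several of its clock genes also differed. *Dbp* was at 35.7 CPM beside 85.1 to 130.1 CPM in the other 10 libraries, and *Arntl* at 15.7 CPM beside 0.953 to 3.76 CPM. *Per2*, *Per3*, *Cry2*, *Tef*, *Hlf* and *Ciart* were also lowest in this library. The other tested clock genes, *Clock*, *Per1*, *Cry1*, *Nr1d1* and *Nr1d2*, lay within the range of the other libraries. Over all tested genes the standard deviation of the log2 difference was 0.58 for this pair of replicates and 0.47 to 0.67 for other pairs, but the chi-square per degree of freedom was the highest of all pairs (93.7, others 25.6 to 86.9). The time of day of each isolation is not given in the sources used here, and the part of these differences in the results was not tested.

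On chow, *Cdkn1a* and *Gadd45a* rose and *Btg1* fell in the knockouts at an adjusted p below 0.05, by the quasi-likelihood test of edgeR, adjusted by Benjamini and Hochberg's method over all tested genes. That is 2 of 10 members up, beside 1.73% of all tested genes, and 1 down, beside 3.02%. With HFS feeding 1 of 10 members rose, *Gadd45a*, beside 1.92% of all genes, and 0 fell by edgeR, beside 2.16%, with *Btg1* lower at an unadjusted p below 0.05 and 0 lower by DESeq2. The members' median log2 fold change was 0.50 on chow and 0.45 on HFS, with 7 of 10 positive on each, where the median over all tested genes was 0.00 and 0.01. An unadjusted edgeR p below 0.05 was found for 2561 of all 13303 tested genes on chow and 2322 on HFS, the background for such counts below. DESeq2 called 4 members on chow, adding *Trp53*, and 3 on HFS, adding *Cdkn1a* and *Ccng1*. It called more genes, 1130 on chow and 1007 on HFS, than the 632 and 543 of edgeR.

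These counts rested on single libraries. Without replicate 2 of the chow-fed knockouts, 0 members and 69 genes passed on chow in place of 632 genes, while on HFS 4 members then passed, *Cdkn1a*, *Ccng1*, *Phlda3* and *Gadd45a*. Without replicate 1 of the same group 5 members and 762 genes passed on chow and 4 members and 660 genes on HFS, where 543 genes passed with all libraries and 662 without replicate 2. Leaving out control replicate 1 or 2 on chow gave 1 member on chow, with 475 and 326 genes, and leaving out control replicate 3 on chow gave 2 members and 643 genes on HFS. Of the HFS libraries, leaving out control replicate 1, control replicate 3 or knockout replicate 3 gave 0 members on HFS by edgeR, with 239, 230 and 285 genes, and without control replicate 2 or knockout replicate 2 the genes numbered 275 and 184.

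**Figure D1:**
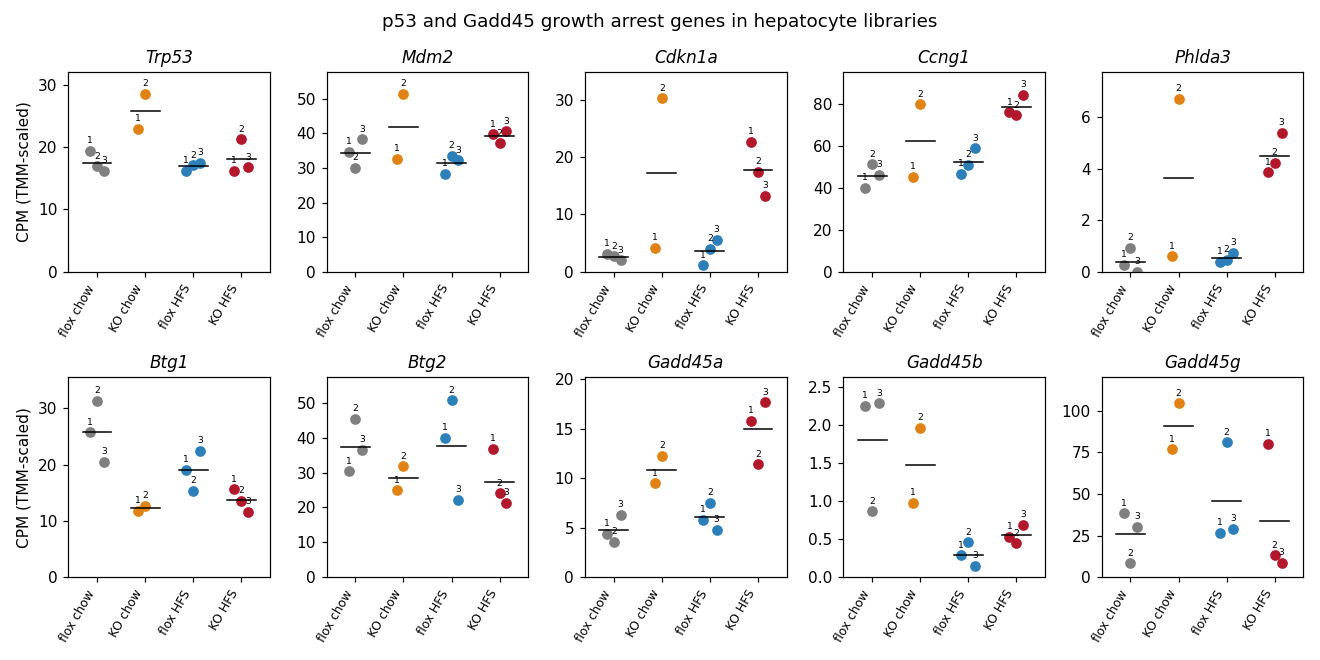
Level of each of the 10 members in each of the 11 libraries, in CPM after TMM normalization (vertical axis, from 0), by genotype (flox, the controls, or KO, the knockouts) and diet, with the replicate number at each point and a line at the group mean. *Cdkn1a*, *Ccng1* and *Phlda3* are high in the 3 HFS-fed knockout libraries and in replicate 2 of the chow-fed knockouts but not in its replicate 1, while *Gadd45a* is higher in all 5 knockout libraries than in any of the 6 control libraries.

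Averaging the genotype effects of both diets in the same model, a comparison chosen after seeing the data, draws on all 11 libraries. Of the 10 members, 4 rose, *Cdkn1a*, *Phlda3*, *Ccng1* and *Gadd45a*, beside 5.25% of all genes, and 1 fell, *Btg1*, beside 6.64%. DESeq2 called 6 members, adding *Trp53* (adjusted p = 0.0439), which missed the threshold in edgeR (log2 fold change 0.33, standard error 0.10, adjusted p = 0.0541). Without replicate 2 of the chow-fed knockouts 3 members passed, *Cdkn1a*, *Btg1* and *Gadd45a*, and 846 genes in place of 1582. The genotype effect was not shown to differ between diets for any member, with 0 of 10 past the threshold in the interaction by edgeR, beside 0.00% of all genes, and 0 of 10 by DESeq2, where 29 of all genes passed. *Trp53* and *Btg1* had an unadjusted edgeR p below 0.05 there, as did 816 of all 13303 genes, and the lowest adjusted p of a member was 0.793. Library totals in place of TMM factors shifted the median log2 fold change of all genes up by 0.33 on chow and 0.26 on HFS, so changes here are relative to the other genes. Under both other scalings, totals and RLE factors, every member had the direction given below for genotype on each diet, apart from *Gadd45b* on chow under totals (0.04).

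*Trp53*, which encodes p53, lies on chromosome 11 from 69580359 to 69591873 of GRCm38, plus strand. Chow-fed controls held 19.4, 16.9 and 16.2 CPM and chow-fed knockouts 23.0 and 28.5 CPM. With HFS feeding the controls held 16.2, 17.1 and 17.4 CPM and the knockouts 16.2, 21.3 and 16.8 CPM. Both chow-fed knockout libraries were above every other library, and the other 3 groups overlapped. The share of all genes with such a gap was not computed, here or for the members below, apart from *Gadd45a*. The genotype difference missed the threshold on chow (log2 fold change 0.56, standard error 0.15, edgeR adjusted p = 0.0546), where DESeq2 gave an adjusted p of 0.0253, and on HFS (log2 fold change 0.10, standard error 0.13, edgeR adjusted p = 0.780). Over the fits without a library the chow adjusted p in edgeR ran from 0.0393 to 0.457, lowest without knockout replicate 1 of that diet and highest without its replicate 2 (log2 fold change 0.39). It also passed without HFS-fed knockout replicate 2 (adjusted p = 0.0412), but not with the chow-fed groups fitted alone (adjusted p = 0.162). Within the knockouts, all HFS-fed libraries were below both chow-fed ones (log2 fold change -0.51, standard error 0.15, edgeR adjusted p = 0.235), with -0.34 and an adjusted p of 0.755 without chow-fed replicate 2.

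*Mdm2*, on chromosome 10 from 117688875 to 117710758, minus strand, stood at 34.6, 30.1 and 38.3 CPM in chow-fed controls and 32.6 and 51.4 CPM in chow-fed knockouts. On HFS it was at 28.3, 33.4 and 32.2 CPM in controls and 39.8, 37.1 and 40.6 CPM in knockouts. The HFS-fed groups did not overlap, whereas on chow replicate 2 of the knockouts was the highest of all 11 libraries and replicate 1 lay among the controls. Neither difference passed on chow (log2 fold change 0.29, standard error 0.17, edgeR adjusted p = 0.399) or on HFS (log2 fold change 0.32, standard error 0.16, edgeR adjusted p = 0.319), and without replicate 2 the chow value was -0.08.

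*Cdkn1a*, whose product p21 inhibits cyclin-dependent kinases, lies on chromosome 17 from 29090976 to 29100727, plus strand. Its level was 3.14, 2.72 and 1.99 CPM in chow-fed controls and 4.22 and 30.2 CPM in chow-fed knockouts. With HFS feeding it was 1.14, 4.02 and 5.53 CPM in controls and 22.7, 17.4 and 13.3 CPM in knockouts. All 3 HFS-fed knockout libraries were above all 6 control libraries, while on chow replicate 2 alone was high, and replicate 1, though above the 3 chow-fed controls, was within the range of the HFS-fed ones. On chow *Cdkn1a* rose (log2 fold change 2.72, standard error 0.70, edgeR adjusted p = 0.0489), but with 0.69 and an adjusted p of 0.791 without replicate 2, and not with the chow-fed groups fitted alone (adjusted p = 0.116). Leaving out each library in turn, it passed 2 times of 11, without chow-fed knockout replicate 1 and without HFS-fed control replicate 1, over which the adjusted p in edgeR ran from 0.00488 to 0.791. On HFS it did not pass with all libraries (log2 fold change 2.32, standard error 0.63, edgeR adjusted p = 0.0675), but did so by DESeq2 (adjusted p = 0.0299), with the HFS-fed groups fitted alone (edgeR adjusted p = 0.0235) and without either chow-fed knockout library (0.0120 and 0.0129). Averaged over both diets *Cdkn1a* rose 5.74-fold (log2 fold change 2.52, standard error 0.47, edgeR adjusted p = 0.00514), past the threshold whichever library was left out, with a log2 fold change of 1.51 without replicate 2. Under a replicate block the chow call of *Cdkn1a* was lost (edgeR adjusted p = 0.118).

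*Ccng1*, the gene of cyclin G1, a p53 target that feeds back on MDM2, lies on chromosome 11 from 40748552 to 40755311, minus strand. Chow-fed controls had 40.1, 51.2 and 46.1 CPM and chow-fed knockouts 45.0 and 79.7 CPM. HFS-fed controls had 46.7, 50.9 and 58.7 CPM and HFS-fed knockouts 75.9, 74.4 and 84.2 CPM. The 4 knockout libraries that were high for *Cdkn1a* were high again, and chow-fed replicate 1 lay among the controls. Neither diet passed alone, chow (log2 fold change 0.45, standard error 0.20, edgeR adjusted p = 0.259) or HFS (log2 fold change 0.59, standard error 0.18, edgeR adjusted p = 0.107). Without replicate 2 the chow value was -0.03, and without replicate 1 it passed (adjusted p = 0.0209). The HFS difference passed with those groups fitted alone (edgeR adjusted p = 0.0202) and without chow-fed knockout replicate 1 or 2 (adjusted p = 0.0253 and 0.0229). Averaged over both diets *Ccng1* rose 1.43-fold (log2 fold change 0.52, standard error 0.14, edgeR adjusted p = 0.0308), a call lost without chow-fed control replicate 1 (0.0660), chow-fed knockout replicate 2 (0.167), HFS-fed control replicates 1 and 2 (0.0721 and 0.0620) or HFS-fed knockout replicates 2 and 3 (0.0553 and 0.0686).

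*Phlda3*, a p53 target whose product restrains AKT, lies on chromosome 1 from 135766119 to 135769136, plus strand, and had few reads. Chow-fed controls held 5, 16 and 0 counts, or 0.276, 0.925 and 0 CPM, the 0 allowing up to 0.149 CPM at 3 counts, a limit for counting error only. Chow-fed knockouts held 14 and 154 counts, or 0.597 and 6.73 CPM. HFS-fed controls had 0.381, 0.458 and 0.735 CPM and HFS-fed knockouts 3.87, 4.24 and 5.41 CPM. As for *Cdkn1a*, the HFS-fed groups were far apart, and the difference on chow lay in replicate 2. Neither chow (log2 fold change 3.22, standard error 0.96, edgeR adjusted p = 0.0832) nor HFS (log2 fold change 3.09, standard error 0.86, edgeR adjusted p = 0.0719) passed with all libraries. The chow value was 0.62 without knockout replicate 2 and passed without replicate 1 (adjusted p = 0.0130). The HFS difference passed with those groups fitted alone (edgeR adjusted p = 0.00317), without chow-fed knockout replicate 1 or 2 (0.0194 and 0.0237) and without chow-fed control replicate 3 (0.0455). Averaged over both diets *Phlda3* rose (log2 fold change 3.16, standard error 0.64, edgeR adjusted p = 0.00851), with 1.85 and an adjusted p of 0.112 without replicate 2 of the chow-fed knockouts.

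All groups share an estimate of spread in the model, so a gap between the chow-fed knockout libraries also enters the standard errors on HFS. For *Cdkn1a* the HFS standard error was 0.63 with all libraries and 0.42 without chow-fed knockout replicate 2, and for *Ccng1* it was 0.18 and 0.12. By group mean, *Cdkn1a*, *Ccng1*, *Phlda3* and *Gadd45a* all ran from HFS-fed knockouts through chow-fed knockouts and HFS-fed controls to chow-fed controls. The diet contrast of these 4 genes did not pass within either genotype, no contrast of chow-fed knockouts with HFS-fed controls was run, and for *Ccng1* chow-fed knockout replicate 1 lay below both control means.

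*Btg1*, an antiproliferative gene whose product binds the CCR4-NOT deadenylase, lies on chromosome 10 from 96617006 to 96622809, plus strand. It stood at 25.7, 31.3 and 20.5 CPM in chow-fed controls and 11.7 and 12.7 CPM in chow-fed knockouts. The HFS-fed controls held 19.1, 15.3 and 22.5 CPM and the HFS-fed knockouts 15.6, 13.6 and 11.7 CPM. Both chow-fed knockout replicates were below all 3 of their controls, and on HFS the groups overlapped, the highest knockout lying above the lowest control. *Btg1* fell on chow (log2 fold change -1.08, standard error 0.21, edgeR adjusted p = 0.0147), a call lost without knockout replicate 1 (-1.02, adjusted p = 0.0617) or replicate 2 (-1.14, adjusted p = 0.109) with sizes close to the full value. It did not pass on HFS (log2 fold change -0.48, standard error 0.18, edgeR adjusted p = 0.189). The average over both diets (log2 fold change -0.78, standard error 0.14, edgeR adjusted p = 0.00379) passed whichever library was left out. The copies *Btg1-ps1* and *Btg1-ps2* had 0 counts in every library.

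*Btg2*, its paralog and a p53 target, lies on chromosome 1 from 134075170 to 134079120, minus strand. Its level was 30.4, 45.5 and 36.6 CPM in chow-fed controls, 24.9 and 31.9 CPM in chow-fed knockouts, 40.0, 50.8 and 22.2 CPM in HFS-fed controls and 36.9, 24.1 and 21.4 CPM in HFS-fed knockouts. The groups overlapped on both diets, and the chow-fed knockout replicate 2 that was high for *Cdkn1a* was not high for *Btg2*. It did not pass on chow (log2 fold change -0.40, standard error 0.32, edgeR adjusted p = 0.548) or on HFS (log2 fold change -0.46, standard error 0.28, edgeR adjusted p = 0.469), and the chow value was -0.59 without knockout replicate 2.

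*Gadd45a*, whose small product binds PCNA and the kinase MAP3K4, lies on chromosome 6 from 67035096 to 67037457, minus strand. Chow-fed controls held 4.36, 3.58 and 6.32 CPM and chow-fed knockouts 9.47 and 12.2 CPM. HFS-fed controls held 5.76, 7.53 and 4.80 CPM and HFS-fed knockouts 15.8, 11.4 and 17.7 CPM. The lowest of the 5 knockout libraries was above the highest of the 6 controls, an order that 3.19% of all tested genes showed, and unlike *Cdkn1a* the gene was high in both chow-fed knockouts. *Gadd45a* rose on chow (log2 fold change 1.18, standard error 0.27, edgeR adjusted p = 0.0318) and on HFS (log2 fold change 1.31, standard error 0.24, edgeR adjusted p = 0.0138), with an interaction at adjusted p = 0.979 in edgeR. The chow call was lost without knockout replicate 2 (0.99, adjusted p = 0.275) without control replicates 1 and 2 (adjusted p = 0.0830 and 0.0972) and with the chow-fed groups fitted alone (adjusted p = 0.0876). A replicate block also lost the chow call (edgeR adjusted p = 0.0558). The HFS call was lost without HFS-fed control replicates 1 and 3 (adjusted p = 0.0610 and 0.0641) and knockout replicate 3 (adjusted p = 0.0554). Averaged over both diets *Gadd45a* rose 2.37-fold (log2 fold change 1.25, standard error 0.18, edgeR adjusted p = 0.00136), whichever library was left out. *E230016M11Rik*, annotated on the opposite strand, overlaps *Gadd45a* over 859 bases, and whether counting used strand is not given in the sources used here. *AC167363.2*, likewise on the opposite strand, overlaps *Cdkn1a* over 1046 bases. It was not among the genes counted, so no level can be given for it. *E230016M11Rik* had 2.13 and 1.49 CPM in chow-fed knockouts and 1.08 to 2.65 CPM over all libraries.

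*Gadd45b*, a stress-inducible member of the same family, lies on chromosome 10 from 80930073 to 80932204, plus strand, and was low throughout. Chow-fed controls held 41, 15 and 46 counts, chow-fed knockouts 23 and 45, HFS-fed controls 6, 9 and 3 and HFS-fed knockouts 13, 12 and 18. In CPM every HFS-fed library, at 0.147 to 0.690, was below every chow-fed library, at 0.867 to 2.29. How many of all genes showed this order was not computed. In edgeR the diet difference did not pass in controls (log2 fold change -2.59, standard error 0.52, edgeR adjusted p = 0.0657), where DESeq2 called it (-2.61, adjusted p = 0.00135), or in knockouts (log2 fold change -1.40, standard error 0.51, edgeR adjusted p = 0.297), where the value was -0.81 without chow-fed replicate 2. For genotype neither chow (log2 fold change -0.30, standard error 0.49, edgeR adjusted p = 0.798) nor HFS (log2 fold change 0.90, standard error 0.55, edgeR adjusted p = 0.460) passed, and the chow value was 0.12 without knockout replicate 1 and -0.88 without replicate 2.

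*Gadd45g*, also of this family, lies on chromosome 13 from 51846678 to 51848468, plus strand. Chow-fed controls held 38.5, 8.27 and 30.4 CPM and chow-fed knockouts 76.9 and 105 CPM. HFS-fed controls held 26.5, 81.0 and 29.0 CPM and HFS-fed knockouts 80.4, 13.0 and 8.51 CPM. Both chow-fed knockouts were above their controls, while on HFS a single library of each genotype was high. Neither chow (log2 fold change 1.82, standard error 0.85, edgeR adjusted p = 0.274) nor HFS (log2 fold change -0.42, standard error 0.77, edgeR adjusted p = 0.851) passed, the interaction had an adjusted p of 0.824 in edgeR, and the chow value was 1.58 without knockout replicate 2. The HFS value was -2.08 (edgeR adjusted p = 0.115) without knockout replicate 1, 0.29 without control replicate 2 and 0.04 without knockout replicate 3. *Myc*, singled out after its values were seen, was highest in the same 4 libraries, with 53.2 and 42.6 CPM in chow-fed knockouts, 18.2 CPM in HFS-fed control replicate 2 and 26.0 CPM in HFS-fed knockout replicate 1, beside 2.48 to 6.57 CPM in the other 7.

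Levels of different genes were compared as mean CPM per kilobase of annotated exon in chow-fed controls. *Gadd45g* was highest at 21.9, followed by *Btg2* at 13.7, *Ccng1* at 13.0, *Mdm2* at 6.76, *Btg1* at 4.90 and *Trp53* at 4.33. *Gadd45a* at 2.70, *Gadd45b* at 1.14, *Cdkn1a* at 0.737 and *Phlda3* at 0.257 were the lowest. The first rank of *Gadd45g* did not hold in every library, its standard deviation being 13.3. In chow-fed control replicate 2, where it was at 8.27 CPM, its level per kilobase was below those of *Btg2* and *Ccng1*. In HFS-fed knockouts *Cdkn1a* stood at 5.01 and *Phlda3* at 2.89 CPM per kilobase, where *Trp53* had 4.47.

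**Figure D2:**
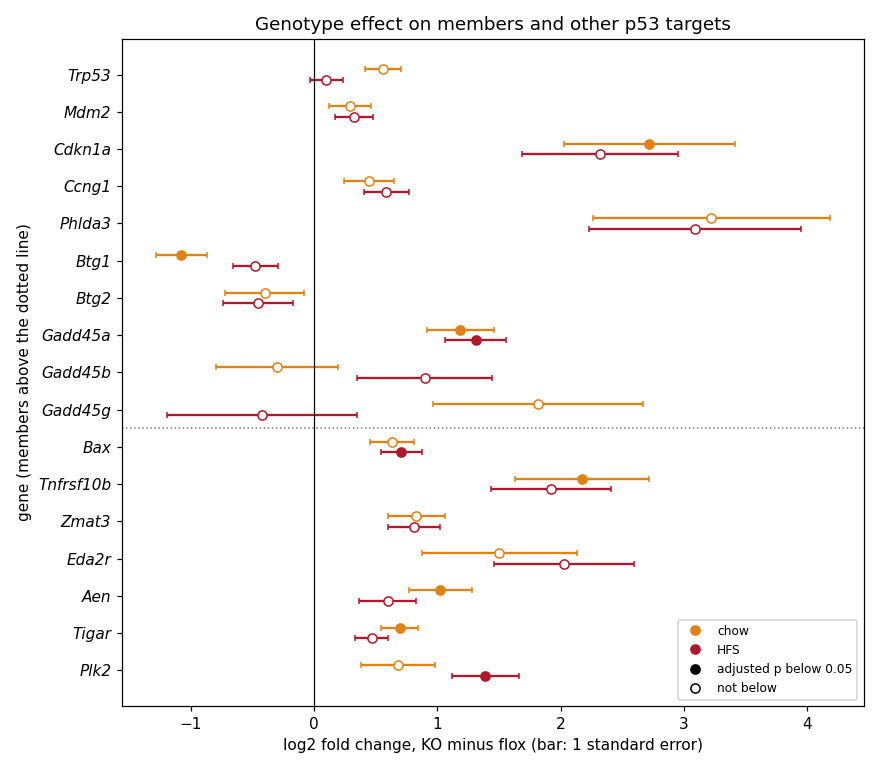
Log2 fold change of knockouts over controls (KO minus flox, horizontal axis, bars of 1 standard error) on chow and on HFS, for the 10 members and, below the dotted line, the 7 other p53 targets past the threshold in the average over both diets. Filled points have an edgeR adjusted p below 0.05, which on chow are *Cdkn1a*, *Btg1*, *Gadd45a*, *Tnfrsf10b*, *Aen* and *Tigar* and on HFS *Gadd45a*, *Bax* and *Plk2*.

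Of 30 other p53 targets 27 were tested. On chow 3 rose in the knockouts and none fell, *Tnfrsf10b*, a death receptor gene (log2 fold change 2.17, standard error 0.55, edgeR adjusted p = 0.0446), *Aen*, a nuclease gene (log2 fold change 1.02, standard error 0.25, edgeR adjusted p = 0.0429), and *Tigar*, a regulator of glycolysis (log2 fold change 0.69, standard error 0.15, edgeR adjusted p = 0.0234). The fold of *Tnfrsf10b* rests on few counts, at 0.149 to 0.347 CPM in controls and 0.613 to 1.53 CPM in knockouts. Its lowest library, chow-fed control replicate 3, was at the limit of 3 counts. On HFS 2 rose and none fell, *Plk2*, a cell cycle kinase gene (log2 fold change 1.39, standard error 0.27, edgeR adjusted p = 0.0177), and *Bax*, whose product forms pores in apoptosis (log2 fold change 0.71, standard error 0.16, edgeR adjusted p = 0.0366). Of all tested genes 1.73% rose on chow and 1.92% on HFS. On each diet 20 of 27 targets were positive, with a median log2 fold change of 0.30 and 0.36 beside 0.00 and 0.01 over all tested genes. *Bax* held 14.7, 14.7 and 13.6 CPM in chow-fed controls, 16.6 and 28.0 CPM in chow-fed knockouts, 10.5, 12.1 and 11.2 CPM in HFS-fed controls and 19.2, 18.0 and 17.9 CPM in HFS-fed knockouts. All 5 knockout libraries were above all 6 controls, an order that 3.19% of all tested genes showed, and replicate 2 of the chow-fed ones was the highest.

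The chow count of these targets was 0 without knockout replicate 2 or control replicate 2, 1 without control replicate 1 or 3, HFS-fed control replicate 3 or HFS-fed knockout replicate 1 or 2, and 7 without knockout replicate 1. The HFS count was 5 without either chow-fed knockout library, 1 without HFS-fed control replicate 1 or knockout replicate 1, and 0 without HFS-fed control replicate 2 or 3 or knockout replicate 2. With all libraries 9 and 11 targets had an unadjusted edgeR p below 0.05 on chow and on HFS, beside 2561 and 2322 of all 13303 genes. DESeq2 called 5 and 7 targets, beside 1130 and 1007 of all genes. Averaged over both diets 7 of 27 rose and none fell, beside 5.25% and 6.64% of all genes. The 7 were *Tigar*, *Tnfrsf10b*, *Bax*, *Zmat3*, *Plk2*, *Aen* and *Eda2r*, with log2 fold changes from 0.58 for *Tigar* to 2.05 for *Tnfrsf10b*.

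Regulators of p53, such as the kinase genes *Atm* and *Atr*, gave 0 calls of 16 tested by edgeR and by DESeq2 on both diets, with 2 on chow and 1 on HFS at an unadjusted p below 0.05. *Atr* came first on chow (log2 fold change 0.39, standard error 0.16, edgeR adjusted p = 0.188) and on HFS (log2 fold change 0.45, standard error 0.14, edgeR adjusted p = 0.103). The 7 tested CDK inhibitors and pocket proteins beside *Cdkn1a* gave 0 calls by edgeR on both diets, with 0 on chow and 2 on HFS at an unadjusted p below 0.05, and DESeq2 called 0 on chow and *Rbl2* on HFS. *Rbl2*, the gene of a pocket protein, came first on chow (log2 fold change -0.28, standard error 0.14, edgeR adjusted p = 0.308) and on HFS (log2 fold change -0.46, standard error 0.13, edgeR adjusted p = 0.0693), and the HFS count of this list was 1 without chow-fed control replicate 3.

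BTG and TOB relatives with their deadenylase partners gave 0 calls of 7 by edgeR on each diet, with 1 on each at an unadjusted p below 0.05, while DESeq2 called 1 on chow and 0 on HFS. First were *Tob2* on chow (log2 fold change -0.50, standard error 0.14, edgeR adjusted p = 0.0647) and *Cnot8* on HFS (log2 fold change -0.28, standard error 0.09, edgeR adjusted p = 0.117), and the chow count was 1 without knockout replicate 1. GADD45 partners gave 0 calls of 12 by edgeR, with 1 on chow and 3 on HFS at an unadjusted p below 0.05, and DESeq2 called 1 on each. First were *Mapk8*, the gene of the kinase JNK1, on chow (log2 fold change -0.46, standard error 0.13, edgeR adjusted p = 0.0657) and *Cdk1* on HFS (log2 fold change 1.58, standard error 0.50, edgeR adjusted p = 0.107), and the chow count was 1 without control replicate 1.

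Of 24 genes of cyclins, CDKs and replication, 0 passed on chow by edgeR, with 3 at an unadjusted p below 0.05 and 1 called by DESeq2, *Cdk6* (log2 fold change 0.48, standard error 0.13, edgeR adjusted p = 0.0656). On HFS 2 rose and none fell, *Ccna2* (log2 fold change 2.62, standard error 0.62, edgeR adjusted p = 0.0399) and *Mki67* (log2 fold change 3.18, standard error 0.78, edgeR adjusted p = 0.0456), both genes of dividing cells, with 7 at an unadjusted p below 0.05 and 6 called by DESeq2. *Mki67* held 0.497, 5.43 and 0.846 CPM in chow-fed controls, 1.45 and 1.09 CPM in chow-fed knockouts, 0.572, 0.865 and 0.392 CPM in HFS-fed controls and 7.37, 6.66 and 2.68 CPM in HFS-fed knockouts. The HFS-fed knockouts were above their controls for *Mki67* as for *Cdkn1a*, but chow-fed control replicate 2 was also high, and the chow-fed knockout replicate 2 with the most *Cdkn1a* was not. The list's median log2 fold change was -0.56 on chow, with 6 of 24 positive, and 0.57 on HFS, with 22 positive. In the interaction 21 were positive and 9 had an unadjusted p below 0.05, but 0 passed by edgeR or by DESeq2, the smallest adjusted p in edgeR being 0.659, for *Mki67*. The HFS count was 0 whichever HFS-fed control library was left out and without knockout replicate 1 or 2 of that diet, 1 without either chow-fed knockout library, and 6 and 5 without chow-fed control replicates 2 and 3. The chow count was 1 without control replicate 2.

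The integrated stress response, which ATF4 drives and which shares some targets with p53, had 4 of 10 genes up on chow, *Atf3* (log2 fold change 4.80, standard error 0.72, edgeR adjusted p = 0.00519), *Ddit3* (log2 fold change 3.77, standard error 0.66, edgeR adjusted p = 0.00978), *Asns* (log2 fold change 3.20, standard error 0.68, edgeR adjusted p = 0.0225) and *Trib3* (log2 fold change 2.19, standard error 0.47, edgeR adjusted p = 0.0234), and none down. On HFS 3 rose and none fell, *Atf3* (log2 fold change 3.09, standard error 0.69, edgeR adjusted p = 0.0304), *Asns* (log2 fold change 2.87, standard error 0.65, edgeR adjusted p = 0.0334) and *Ddit3* (log2 fold change 2.50, standard error 0.62, edgeR adjusted p = 0.0481). The share of all tested genes that rose was 1.73% on chow and 1.92% on HFS. *Ddit3* stood at 2.95 to 6.67 CPM in the controls, 23.6 and 133 CPM in chow-fed knockouts and 15.9, 13.5 and 44.5 CPM in HFS-fed knockouts. Every knockout library was above every control, as for *Gadd45a*. The knockout replicate with the most *Ddit3* had the most *Cdkn1a* on chow and the least *Cdkn1a* on HFS. The chow count was 1 without knockout replicate 2 and 2 without control replicate 1, 2 or 3. The HFS count was 0 without HFS-fed control replicate 1 or 3 or knockout replicate 3, and 1 without control replicate 2 or knockout replicate 2.

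Of 14 tested immediate early genes 1 rose on chow, *Myc* (log2 fold change 3.02, standard error 0.77, edgeR adjusted p = 0.0490), and 1 on HFS, *Klf6* (log2 fold change 1.22, standard error 0.18, edgeR adjusted p = 0.00465), and none fell. The *Myc* call was lost whichever chow-fed library was left out, and without HFS-fed control replicate 3 or HFS-fed knockout replicate 2 or 3, and the HFS count was 2 without control replicate 3. Clock genes gave 0 calls of 13 by edgeR and by DESeq2 on both diets and 0 at an unadjusted p below 0.05, with *Arntl* first on chow (log2 fold change 1.42, standard error 0.65, edgeR adjusted p = 0.260) and *Per1* on HFS (log2 fold change -0.33, standard error 0.20, edgeR adjusted p = 0.462). Without chow-fed knockout replicate 1, which left the library with high *Arntl*, 7 clock genes passed on chow.

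For diet, 0 of 10 members passed in controls by edgeR, beside 0.428% of all genes, and 0 of 10 in knockouts, beside 0.0601%. At an unadjusted edgeR p below 0.05 were *Btg1* and *Gadd45b* in controls and *Trp53* and *Gadd45b* in knockouts. So were 1190 of all 13303 genes in controls and 1683 in knockouts. DESeq2 called 1 member in controls, *Gadd45b*, and 0 in knockouts. The members' median log2 fold change for diet was 0.10 in controls and 0.00 in knockouts, beside -0.01 and 0.00 over all genes. Among the other p53 targets 0 passed for diet by edgeR, with 3 in controls and 4 in knockouts at an unadjusted p below 0.05, and DESeq2 called 0 and 1. *Bbc3*, the gene of the apoptosis factor PUMA, came first in controls (log2 fold change -0.52, standard error 0.22, edgeR adjusted p = 0.511) and in knockouts (log2 fold change -0.89, standard error 0.23, edgeR adjusted p = 0.203).

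Of the other gene lists, markers of cell types aside, none had a call for diet by edgeR with all libraries. In controls DESeq2 called *Cnot8*, *Cdk6* and *Chac1*, and the edgeR values were 0.40 (adjusted p = 0.117), 0.50 (adjusted p = 0.156) and 1.17 (adjusted p = 0.109). First in the remaining lists were *Trp53bp1* (edgeR adjusted p = 0.474), *Cdkn1c* (0.725), *Map2k7* (0.415), *Klf6* (0.300) and *Per2* (0.680). In knockouts DESeq2 called *E2f2* and *Ppp1r15a*, with edgeR values of 1.83 (adjusted p = 0.201) and -0.81 (adjusted p = 0.108). Of the stress response genes 9 of 10 were negative there (median log2 fold change -0.95), 7 at an unadjusted edgeR p below 0.05. Of cyclins, CDKs and replication 21 of 24 were positive (median 1.005), 9 at such a p. In controls the medians of these lists were -0.16 and -0.04. In the interaction 9 of 10 stress response genes were negative (median -1.07). First in the remaining lists were *Chek1* (edgeR adjusted p = 0.411), *Cdkn1b* (0.424), *Cnot8* (0.292), *Map2k7* (0.290), *Zfp36* (0.297) and *Arntl* (0.300). For the interaction no list at all had a call by edgeR, and DESeq2 called 1 gene, *Chac1*, with an edgeR adjusted p of 0.603. First in the other lists were *Trp53bp1* (edgeR adjusted p = 0.843), *Ephx1* (0.749), *Rb1* (0.829), *Pabpc1* (0.879), *Cdk1* (0.687), *Mki67* (0.659), *Zfp36* (0.792) and *Nr1d2* (0.870). Without chow-fed knockout replicate 1, 2 stress response genes and 2 clock genes passed for diet in knockouts.

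Markers of other cells differed between libraries, and in these bulk samples fewer cells of a type and less RNA per cell cannot be told apart. The 10 macrophage markers, *Cd5l* the most abundant, summed to 63.9, 15.0 and 15.4 CPM in chow-fed controls, 15.7 and 24.7 CPM in chow-fed knockouts, 41.9, 32.9 and 29.9 CPM in HFS-fed controls and 40.4, 44.2 and 76.4 CPM in HFS-fed knockouts. Chow-fed control replicate 1 and HFS-fed knockout replicate 3 were the highest. The 10 endothelial markers, led by *Stab2*, summed to 102, 41.2 and 51.1 CPM, 32.4 and 25.6 CPM, 137, 82.1 and 111 CPM and 105, 75.3 and 68.6 CPM in the same order of groups. The 10 stellate markers, led by *Dcn* and with 8 tested, summed to 35.0, 11.7 and 14.7 CPM, 7.34 and 8.26 CPM, 35.3, 22.5 and 20.8 CPM and 52.2, 29.2 and 24.9 CPM in that order. Endothelial and stellate sums were lowest in the chow-fed knockouts, where *Gadd45a* was above and *Btg1* below the controls. By edgeR 0 macrophage, endothelial and stellate markers passed for genotype on either diet or for diet, with *Timd4*, *Flt4* and *Lrat* first on chow (adjusted p = 0.266, 0.0647 and 0.0735) and *Cd68*, *Lyve1* and *Col3a1* on HFS (0.220, 0.301 and 0.248). At an unadjusted p below 0.05 on chow were 8 endothelial and 4 stellate markers, and DESeq2 called 5 and 2 there and 9 and 4 for diet in knockouts. The chow count of endothelial markers was 1 without HFS-fed control replicate 2.

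The 9 lymphocyte markers, led by *Cd4*, summed to 0.548 to 3.33 CPM over the 11 libraries, and the 8 neutrophil markers, led by *S100a9*, to 0.149 to 4.95 CPM. *Sox9*, a marker of cholangiocytes, fell on chow in knockouts (log2 fold change -1.54, standard error 0.31, edgeR adjusted p = 0.0167), a call lost without either chow-fed knockout library. With HFS feeding it did not pass for genotype (edgeR adjusted p = 0.143). *Spp1*, another cholangiocyte marker, held 5.96, 3.12 and 4.13 CPM in chow-fed controls, 3.63 and 2.71 CPM in chow-fed knockouts, 1.38, 9.52 and 2.79 CPM in HFS-fed controls and 8.23, 14.1 and 12.5 CPM in HFS-fed knockouts, and did not pass on chow (log2 fold change -0.47, standard error 0.62, edgeR adjusted p = 0.737) or on HFS (log2 fold change 1.36, standard error 0.53, edgeR adjusted p = 0.203). Of the lymphocyte markers only *Cd4* was tested and of the neutrophil markers 3. For genotype 0 of these passed by edgeR and by DESeq2, and 0 at an unadjusted p below 0.05, with *Cd4* and *S100a9* first on chow (edgeR adjusted p = 0.418 and 0.372) and on HFS (0.569 and 0.385). *Cd4* rose with HFS feeding in controls (log2 fold change 1.99, standard error 0.35, edgeR adjusted p = 0.0422), a call lost whichever control library, chow-fed knockout library or HFS-fed knockout replicate 3 was left out. No other marker passed for diet by edgeR, and the first of each list in controls were *Cyp2e1* (edgeR adjusted p = 0.462), *Ptprc* (0.695), *Stab2* (0.312), *Hgf* (0.429), *Sox9* (0.267) and *S100a9* (0.479). In knockouts they were *Alb* (edgeR adjusted p = 0.432), *Cd5l* (0.290), *Flt4* (0.157), *Reln* (0.121), *Spp1* (0.273), *Cd4* (0.330) and *S100a9* (0.383). In the interaction they were *Alb* (edgeR adjusted p = 0.749), *Spi1* (0.805), *Flt4* (0.792), *Reln* (0.686), *Spp1* (0.799), *Cd4* (0.817) and *Elane* (0.932).

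Of 12 hepatocyte markers 3 fell on chow, *Alb* (log2 fold change -2.14, standard error 0.38, edgeR adjusted p = 0.0107), *Serpina1a* (log2 fold change -0.95, standard error 0.19, edgeR adjusted p = 0.0163) and *F2* (log2 fold change -0.86, standard error 0.18, edgeR adjusted p = 0.0236), and 2 on HFS, *F2* (log2 fold change -0.93, standard error 0.16, edgeR adjusted p = 0.00995) and *Apoa1* (log2 fold change -1.45, standard error 0.28, edgeR adjusted p = 0.0161). The chow count was 0 without knockout replicate 2 and 5 without replicate 1. The HFS count was 5 and 4 without chow-fed knockout replicates 1 and 2, 4 without HFS-fed knockout replicate 1, 0 without its replicate 2, and 1 without its replicate 3 or control replicate 1 or 3. No marker of these lists was at 0 in all libraries, and the part of other cells in the members' values was not tested.

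In the average over both diets further lists had calls by edgeR, each a single gene unless given otherwise, where 5.25% of all genes rose and 6.64% fell. *Atr* (0.42, adjusted p = 0.0227) and *Cdk6* (0.34, adjusted p = 0.0285) rose, and *Rbl2* (-0.37, adjusted p = 0.0267), *Tob2* (-0.39, adjusted p = 0.0198), *Mapk8* (-0.29, adjusted p = 0.0452) and *Sox9* (-1.16, adjusted p = 0.00369) fell, while *Spp1* was positive and did not pass (0.44, adjusted p = 0.558). Of the 3 tested cholangiocyte markers 2 were positive and *Sox9* alone negative, with a median log2 fold change of 0.08. The stress response genes that rose on chow, 4 in number, rose again, from 1.69 for *Trib3* to 3.95 for *Atf3*, as did *Klf6* (0.94, adjusted p = 0.00117) and *Myc* (1.82, adjusted p = 0.0430). Of hepatocyte markers 6 fell, *F2* (-0.90), *Serpina1a* (-0.80), *Apoa1* (-1.33) and *Alb* (-1.50) first, and of endothelial markers 2, *Lyve1* (-1.35, adjusted p = 0.0417) and *Flt4* (-1.08, adjusted p = 0.0489). Clock, macrophage, stellate, lymphocyte and neutrophil genes gave 0 calls by edgeR and by DESeq2, led by *Per1* (adjusted p = 0.124), *Ptprc* (0.350), *Hgf* (0.0903), *Cd4* (0.829) and *S100a9* (0.146), with 1, 0, 2, 0 and 1 at an unadjusted p below 0.05.

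Many of these averaged calls rested on single libraries. The list of *Atr* had 0 without chow-fed knockout replicate 2, HFS-fed control replicate 1 or 3 or HFS-fed knockout replicate 2 or 3, and that of *Rbl2* 0 without chow-fed control replicate 1 or 2, either chow-fed knockout, HFS-fed control replicate 1 or 3 or HFS-fed knockout replicate 3. The list of *Tob2* had 0 without chow-fed knockout replicate 2 or HFS-fed control replicate 3, and that of *Mapk8* 2 without chow-fed knockout replicate 1 and 0 whichever other library was left out, except chow-fed control replicate 1. The list of *Cdk6* had 0 without chow-fed control replicate 1, HFS-fed control replicate 1 or 3 or HFS-fed knockout replicate 2 or 3, 4 without chow-fed control replicate 2 and 2 without HFS-fed knockout replicate 1. Of immediate early genes 1 passed whichever chow-fed library was left out, and without HFS-fed control replicate 1 or HFS-fed knockout replicate 1. Endothelial calls were 0 without chow-fed control replicate 1, either chow-fed knockout, HFS-fed control replicate 1 or 3 or HFS-fed knockout replicate 2 or 3, 6 without chow-fed control replicate 2 and 5 without HFS-fed control replicate 2. That last omission also gave 1 neutrophil call, leaving out chow-fed control replicate 1 gave 1 macrophage call, and leaving out chow-fed knockout replicate 1 gave 6 clock calls.

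Genes with the most similar pattern were sought for the 3 members past the threshold on a diet, as a description, by Pearson's r of log2 CPM over the 11 libraries, which share groups, among 11129 tested genes with a mean of at least 1 CPM. Closest to *Cdkn1a* were *Aen* (r = 0.943), *Enc1* (r = 0.939) and *C130083M11Rik* (r = 0.927). *Aen* held 14.3 and 28.3 CPM in chow-fed knockouts and 17.0, 18.4 and 18.3 CPM in HFS-fed knockouts, beside 8.67 to 14.1 CPM in controls. Closest to *Gadd45a* were *Hmces* (r = 0.968) and *Pkp1* (r = 0.951), and closest to *Btg1* were *Sec24d* (r = 0.943), *Tcf7l1* (r = 0.923) and *Dpy19l3* (r = 0.917). *Sec24d* held 117 to 186 CPM in controls and 81.8 to 116 CPM in knockouts.

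Promoter windows of 300 bases, from 250 before to 50 after the gene start, came from RefSeq on GRCm38.p6 for all 10 members, as 11 windows since *Cdkn1a* has a pair of starts. Both strands were searched for the p53 half-site, for the cAMP response element TGACGTCA and for TGATGNAA, a core of the C/EBP-ATF response element. The p53 half-site matched in 5 of 11 windows, those of *Trp53*, *Mdm2*, *Ccng1*, *Gadd45a* and the upstream start of *Cdkn1a*, and in 8.36% of 32851 windows of all genes. TGACGTCA was in 1 member window, that of *Btg2* (1.79% of all windows), and TGATGNAA in 1, that of *Gadd45g* (3.97%). The members were chosen partly as p53 targets, and a match is a stretch of letters, not a measured site. The windows shown belong to the 4 members that rose in the average over both diets, with matches to the p53 half-site in capitals, 5′ to 3′ on the strand of the gene. They are chr17:29090729-29091028 (plus) for the upstream start of *Cdkn1a*, chr11:40755237-40755536 (minus) for *Ccng1*, chr6:67037358-67037657 (minus) for *Gadd45a* and chr1:135765835-135766134 (plus) for *Phlda3*. *Cdkn1a* holds 2 matches, *Ccng1* and *Gadd45a* 1 each, and *Phlda3* 0 in this window.
Cdkn1a: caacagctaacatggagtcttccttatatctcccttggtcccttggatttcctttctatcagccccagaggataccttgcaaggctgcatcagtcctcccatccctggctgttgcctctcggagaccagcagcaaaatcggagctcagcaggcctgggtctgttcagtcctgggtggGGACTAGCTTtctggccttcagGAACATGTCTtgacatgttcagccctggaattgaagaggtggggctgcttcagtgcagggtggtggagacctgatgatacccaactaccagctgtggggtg
Ccng1: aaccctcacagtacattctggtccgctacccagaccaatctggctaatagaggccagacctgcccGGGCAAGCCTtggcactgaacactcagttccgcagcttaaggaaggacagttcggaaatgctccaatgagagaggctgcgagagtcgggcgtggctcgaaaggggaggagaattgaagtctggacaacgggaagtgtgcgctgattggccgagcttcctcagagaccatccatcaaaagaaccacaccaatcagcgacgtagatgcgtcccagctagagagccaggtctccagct
Gadd45a: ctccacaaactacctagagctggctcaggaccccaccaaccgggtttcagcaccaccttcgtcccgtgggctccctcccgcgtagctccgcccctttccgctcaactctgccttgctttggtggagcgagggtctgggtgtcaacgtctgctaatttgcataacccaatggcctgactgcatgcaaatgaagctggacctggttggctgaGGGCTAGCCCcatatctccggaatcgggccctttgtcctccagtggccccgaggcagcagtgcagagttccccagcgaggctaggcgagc
Phlda3: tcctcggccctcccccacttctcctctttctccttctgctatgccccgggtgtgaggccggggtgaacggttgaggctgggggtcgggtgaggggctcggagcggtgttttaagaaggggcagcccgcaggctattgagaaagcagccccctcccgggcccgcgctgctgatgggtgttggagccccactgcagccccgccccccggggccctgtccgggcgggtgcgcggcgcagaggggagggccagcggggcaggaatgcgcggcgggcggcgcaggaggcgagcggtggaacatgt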

How the data were processed

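The authors deposited whole-number counts per gene, and accounts of how those counts were made differ. The study's methods name TruSeq Stranded mRNA libraries, 50 bp single-end reads on a HiSeq instrument, kallisto and tximport, while the submitters' processing notes name cutadapt 1.13, STAR, HTSeq 0.6.1p1 and DESeq2 on mm10, and the labels a TruSeq Total RNA kit. Whether counting used strand is not given in the sources used here. GENCODE M21 (GRCm38) holds 54165 of the 54232 gene identifiers.

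edgeR 4.0.16 in R 4.3.3 filtered genes (filterByExpr, minimum count 10), computed TMM factors, and fitted all 11 libraries by quasi-likelihood with a term for each of 4 groups, at a threshold of 0.05 on the adjusted p. The standard error is the log2 fold change divided by the square root of F. Log2 CPM used a prior count of 2. DESeq2 1.42.0, other scalings and filters, only the groups compared, a replicate block and each library left out in turn were alternatives. The code was tested on simulated data with 200 changed genes. Members and gene lists were chosen with earlier results of these data known. From each list the text names the called genes, at most 4 by p, or else the gene with the smallest p, and others only where it says so or as examples of the list. Between replicates the chi-square divided by its degrees of freedom was 25.6 to 93.7, highest for the chow-fed knockouts, where counting error alone gives about 1, so intervals from counting error are not given. The stricter filter asked for 30 counts, values of 0 are read against 3 counts, and similar patterns were sought among genes with a mean of at least 1 CPM. All tested genes, not the lists alone, entered each adjustment of p.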

Additional observations from a re-analysis of the deposited data

How the results depend on the processing

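Members past the threshold numbered 3 on chow, 1 on HFS, 5 in the average over both diets and 0 elsewhere, and genes 632, 543, 1582, 57 for diet in controls, 8 for diet in knockouts and 0 for the interaction. By DESeq2 genes numbered 1130 on chow, 1007 on HFS, 180 for diet in controls, 215 for diet in knockouts and 29 for the interaction, and members 3 on HFS and 1 for diet in controls. With library totals genes numbered 3000 on chow, 1483 on HFS and 5802 in the average, members 7 on chow and 4 on HFS, and *Gadd45b* on chow changed sign to 0.0360. With no filter beyond 1 count genes numbered 1507 on chow, 1438 on HFS, 499 and 722 for diet in controls and knockouts, and 269 for the interaction, and members 6 on chow, 5 on HFS, 2 and 1 for diet, 1 for the interaction and 9 in the average. With only the 2 groups compared genes numbered 233 on chow and 0 for diet in knockouts, and members 1 on chow and 4 on HFS, where genes numbered 809. The replicate block gave 1 member, *Btg1*, and 455 genes on chow, losing *Cdkn1a* and *Gadd45a*, and 19 genes for diet in knockouts.

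Leaving out each library in turn gave 69 to 762 genes and 0 to 5 members on chow, 184 to 662 genes and 0 to 4 members on HFS, 6 to 59 genes for diet in controls, 0 to 36 for diet in knockouts, and 846 to 1735 genes and 3 to 7 members in the average. It gave 0 members for either diet effect and 0 genes and members for the interaction by edgeR in each fit. Changes of sign came in *Trp53* on HFS (-0.0352 to 0.17, below 0 without HFS-fed knockout replicate 2), *Mdm2* and *Ccng1* on chow (-0.0784 to 0.58 and -0.0254 to 0.80, both below 0 without knockout replicate 2), *Gadd45b* on chow (-0.88 to 0.12, above 0 without knockout replicate 1), *Gadd45g* on HFS (-2.08 to 0.29, 0.29 without control replicate 2 and 0.04 without knockout replicate 3) and *Gadd45g* in the average (-0.13 to 1.05, below 0 without HFS-fed knockout replicate 1). The causes were not tested. Where chow-fed knockouts keep 1 library, it is assumed to vary like the other groups.

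Of 584 log2 fold changes of members computed under alternatives, 503 kept direction and side of the threshold, 45 passed only under the alternative, 28 passed only in the original and 8 changed sign. Of 40 member levels under library totals, 36 moved by less than 1 standard deviation. Same-numbered libraries of different groups are different animals, so the block is no pairing of animals. Over 15 same-number pairs the mean correlation was -0.01 (-0.20 to 0.23), with 4 over 0.1. Of 11 libraries 4 were closest to their own number. These correlations used values centred on means of 2 or 3 libraries, so they cannot show whether same-numbered libraries shared a batch. They went by the numbers in the titles, although the file of chow-fed knockout replicate 2 carries another number. Groups of 2 or 3 libraries limit which differences pass, and at the depth of these libraries *Phlda3* and *Gadd45b* rest on few counts.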
